A study of Rattus norvegicus with 22 samples.

Results

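This account covers complement components and regulators in rat spinal cord, as listed by 6 gene symbols, C1qa, C1qb, C1s, C2, C3 and Serping1. A probe set, the group of short probes that reads 1 transcript, was taken where its only gene symbol was one of these. That gave 5 probe sets, 1 each for C1qa, C1qb, C1s, C3 and Serping1, of 31042 probe sets tested, 20826 of which carry 1 symbol, for 14217 genes in all. C2 had no probe set of its own, since it appears only in 4 probe sets that also carry Cfb, its neighbour on chromosome 20 with 0 genes between them. Those 4 are described apart and cannot be given to either gene.

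Spinal cord RNA of rats was read on 22 Affymetrix arrays, with 3 arrays of normal cord, 3 of laminectomy without contusion, 2 of untreated contusion, 2 of contusion with clenbuterol and 3 each of contusion with BSO (buthionine sulfoximine), with both tempol and BSO, with tempol and with X-ray. A weight of 10 g fell 25 mm onto the cord at thoracic segment T10, and contused cord was taken at 24 h, once the rats had been perfused with PBS. Clenbuterol, a beta-adrenergic agonist, was given at 150 mg/kg, X-rays at 10 Gy and tempol, a superoxide-scavenging nitroxide, at 275 mg/kg, each 20 min after the injury. BSO, an inhibitor of glutathione synthesis, was given at 150 mg/kg, 24 h before it. All treated groups were contused. The labels name neither strain, sex nor age, and they do not say whether arrays of a group came from separate rats. All p-values therefore rest on array-to-array spread, which may be technical.

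Complement is a cascade of plasma and tissue proteins that tags cells and debris for removal. C1q, assembled from the chains of C1qa, C1qb and C1qc, recognises its target with the proteases C1r and C1s attached. Of these, C1s then cuts C4 and C2 into a convertase that splits C3. The inhibitor encoded by Serping1 blocks C1r and C1s. In the nervous system C1q comes chiefly from microglia and macrophages, C3 from reactive astrocytes and myeloid cells, and the C3 fragments serve in phagocytosis and in the pruning of synapses.

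The promoter windows of C1qa and C1qb are shown because these genes of 1 protein lie in 1 cluster on chromosome 5, with C1qc between them, and their signals differed in spread between arrays of a group. That of C3 is shown because C3 had its lowest mean in untreated contusion and its highest in normal cord, although each of these places rested on 1 array. Each window holds the 250 bases before the gene's start in RefSeq, build GRCr8, minus strand, read 5′ to 3′. The coordinates are chr5:154419934-154420183 for C1qa, chr5:154407828-154408077 for C1qb and chr9:2201340-2201589 for C3. Capitals mark every match, on either strand, to the 5 motifs given here.
C1qa: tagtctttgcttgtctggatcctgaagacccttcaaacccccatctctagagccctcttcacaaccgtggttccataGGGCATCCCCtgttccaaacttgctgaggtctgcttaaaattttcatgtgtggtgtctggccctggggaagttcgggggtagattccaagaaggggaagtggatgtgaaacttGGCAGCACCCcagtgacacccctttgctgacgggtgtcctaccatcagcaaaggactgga
C1qb: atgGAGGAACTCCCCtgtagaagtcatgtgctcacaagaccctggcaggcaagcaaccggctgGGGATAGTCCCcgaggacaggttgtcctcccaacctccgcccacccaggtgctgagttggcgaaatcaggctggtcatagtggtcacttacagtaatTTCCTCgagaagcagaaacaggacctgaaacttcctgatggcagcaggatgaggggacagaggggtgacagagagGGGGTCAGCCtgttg
C3: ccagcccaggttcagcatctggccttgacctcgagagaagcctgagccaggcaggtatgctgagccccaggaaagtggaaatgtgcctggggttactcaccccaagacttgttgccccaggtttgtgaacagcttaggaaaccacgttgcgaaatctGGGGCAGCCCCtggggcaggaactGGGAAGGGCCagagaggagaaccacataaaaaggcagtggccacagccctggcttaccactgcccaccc

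The motifs were GGG and CC with 5 bases of any kind between them for NF-kB, GAAA repeated after 2 bases of any kind for ISRE, GAGGAA for the core of PU.1, the myeloid factor, TTGCNNCAA for C/EBP and TGANTCA for AP-1. The NF-kB pattern matched at 2 positions in C1qa, 4 in C1qb and 3 in C3, some overlapping, and 42.3% of the 33469 promoter windows of the table hold at least 1. The PU.1 core matched at 2 positions in C1qb, and 23.3% of all windows hold it. The ISRE, C/EBP and AP-1 patterns, held by 3.41%, 1.75% and 6.34% of all windows, had 0 matches in these 3. A match is a description of letters and no measurement of binding. C1s, Serping1 and C2 had no entry.

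The deposited values are linear signal intensities that were scaled to about the same mean on every array, and all differences below are on the log2 scale, where 1 is a doubling. They come from 1 limma fit of all 22 arrays with 8 group means, and adjusted p-values are Benjamini-Hochberg values over all 31042 probe sets with a threshold of 0.05. Values after ± are standard errors unless marked SD. Normal 1 and laminectomy 2 stood apart from the other arrays, with median correlations to the rest of 0.685 and 0.667 against 0.725 to 0.785. They also had the strongest hybridization spikes, with mean log2 signals of 12.27 and 13.30 against 10.04 to 12.12, and normal 1 had a Gapdh 3′ over 5′ log2 ratio, a sign of RNA quality, of 1.49 against −0.20 to 0.85 on the other arrays. Normal 1 also held the highest reading of C3 on any array and the highest of C1qb and C1s in normal cord. The part of RNA quality in these readings was not tested. The main differences from uninjured cord are given again without both arrays. Over the arrays the summed signals ran from 6100 to 39754 for the neuron markers (12 measured genes) and from 29189 to 115851 for the oligodendrocyte markers (10 genes). They ran from 15651 to 74561 for the astrocyte markers (10 genes) and from 1130 to 5451 for the hepatocyte markers (6 genes). Every deposited signal is above 0, so these sums describe the arrays and do not test the tissue label.

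None of the 5 complement genes passed the threshold in any of the 11 comparisons. C1s, C3 and Serping1 had their lowest group mean in untreated contusion, a group of 2 arrays (for C3 only with contusion 2 included). The share of all probe sets with their lowest mean there was not computed. Nor was the share with both contusion arrays below every uninjured array. C1qa differed by 0.31 between contused and uninjured cord, with an interval of −0.21 to 0.83, and C1qb varied so widely within groups that its interval for the same difference was −0.91 to 1.38. By limma 0 of 5 passed in contused minus uninjured cord, where 0.319% of all probe sets passed (99 of 31042), and 1 of 5, C3, had an unadjusted p under 0.05, against 10.4% of all. No gene had all contused arrays above, or all below, the uninjured ones, which held for 0.0709% and 0.058% of all probe sets.

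**Figure D1:**
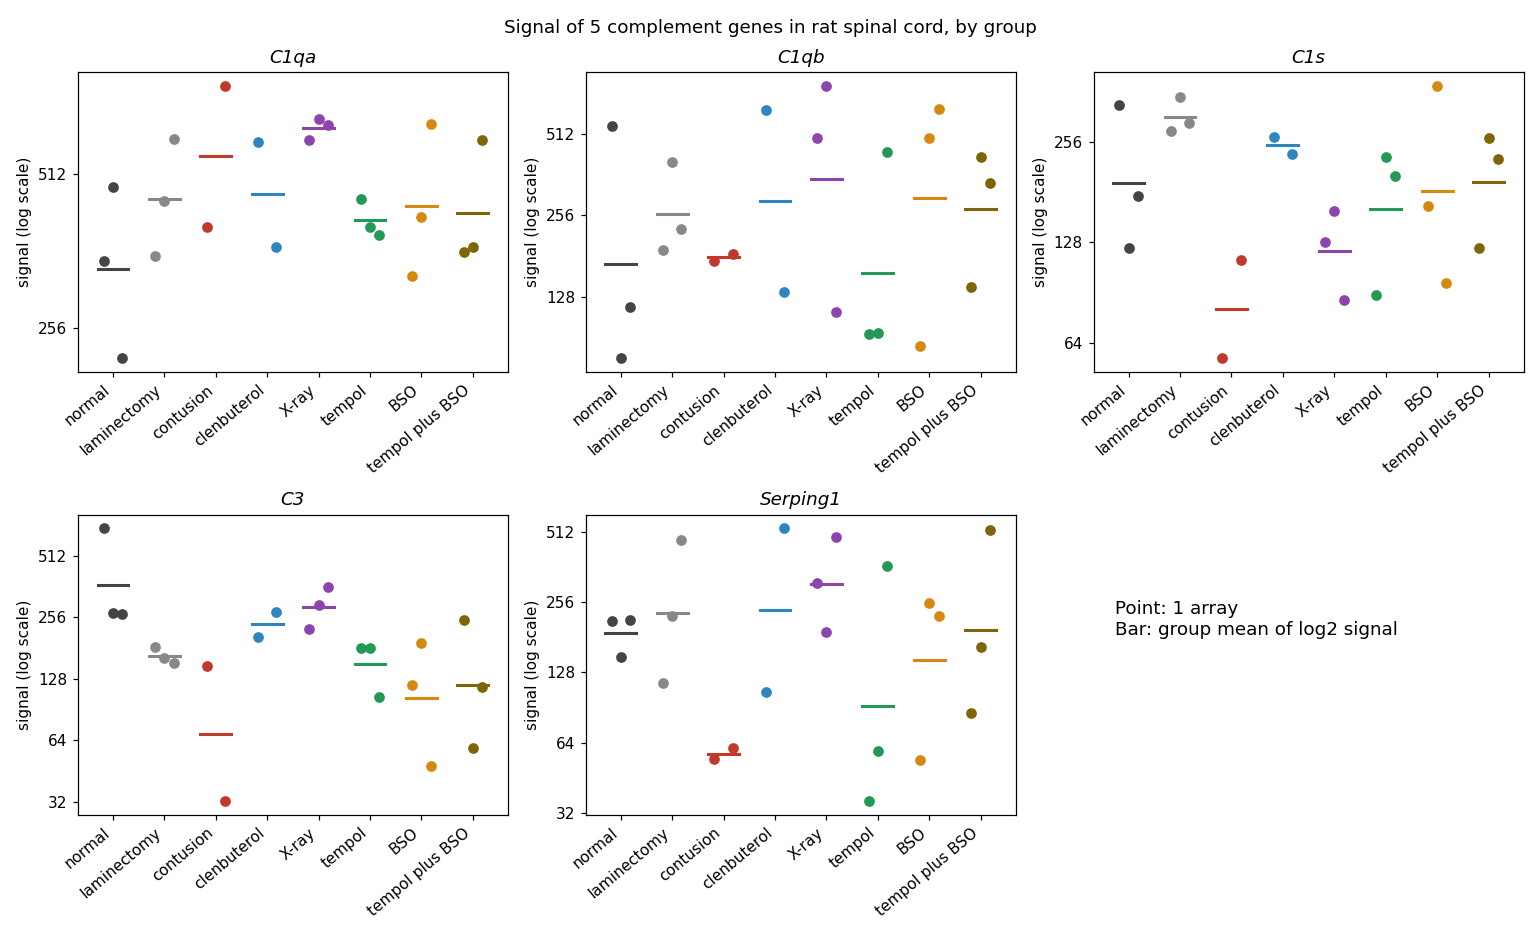
Signal of the 5 complement genes (y axis, log scale, arbitrary units of the deposited table) in each of the 8 groups (x axis), with 1 point per array and a bar at the mean of the log2 signals. C1qa stays between 223.5 and 760.6 on all arrays, whereas C1qb covers 76.4 to 770.1, and the 2 contusion arrays of Serping1 lie at 54.5 and 60.6.

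C1qa was the most repeatable of the 5. Its signals were 346.6, 481.7 and 223.5 in normal cord, 353.7, 452.5 and 597.1 after laminectomy, and 402.7 and 760.6 after contusion. The treated arrays read 591.2 and 369.0 with clenbuterol, 595.6, 653.6 and 637.8 with X-ray, 457.4, 402.6 and 389.4 with tempol, 322.8, 420.9 and 638.9 with BSO and 359.9, 367.8 and 596.4 with tempol plus BSO. Its within-group SD of 0.42 was larger than that of only 20.1% of probe sets of like level (mean log2 signal within 0.5). The order of group means ran from X-ray through contusion, clenbuterol, laminectomy, BSO, tempol plus BSO and tempol to normal cord, and the arrays of every pair of neighbours in that order overlapped. The 3 X-ray arrays were close together (9.30 ± 0.07 SD, n = 3) and all above the 3 tempol arrays (8.70 ± 0.12 SD, n = 3), a pair of groups picked after their values were seen and not tested.

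The interval of C1qa included 0 in every comparison. Contused minus uninjured cord was 0.31 ± 0.25 (interval −0.21 to 0.83, adjusted p = 0.705), and 0.32 without normal 1 and laminectomy 2. Against normal cord, untreated contusion differed by 0.73 ± 0.47 (adjusted p = 0.853), with overlapping arrays, and by 0.75 without those 2. The 5 treated groups differed from untreated contusion by −0.41 to 0.18, and the interval for tempol, the lowest of them, ran from −1.41 to 0.58.

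C1qb, the second chain, was less repeatable. It read 545.2, 76.4 and 118.2 in normal cord, 190.6, 402.1 and 227.4 after laminectomy and 174.3 and 185.1 after contusion. With treatment it read 628.2 and 133.4 for clenbuterol, 492.7, 770.1 and 113.2 for X-ray, 93.5, 94.9 and 437.8 for tempol, 84.7, 491.8 and 633.7 for BSO and 139.3, 422.0 and 338.2 for tempol plus BSO. The low and high arrays of normal, X-ray and BSO cord spanned most of the gene's range, and the within-group SD of 1.24 was larger than that of 95.3% of probe sets of like level. Of its neighbouring group means only laminectomy and contusion had arrays that did not overlap, and the other 6 pairs overlapped.

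No comparison of C1qb came near the threshold, and its intervals were wide. Contused minus uninjured cord was 0.24 ± 0.55 (interval −0.91 to 1.38, adjusted p = 0.919), and 0.82 without normal 1 and laminectomy 2. Contusion minus laminectomy was −0.53 ± 1.04 (interval −2.70 to 1.64, adjusted p = 0.984), and −0.21 without both. Against untreated contusion the treated groups lay between −0.19 for tempol and 0.96 for X-ray, each with a standard error of 1.04 or, for clenbuterol, 1.13.

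C1qc, which encodes the third chain and lies between the others in the gene cluster, was as repeatable as C1qa (within-group SD 0.49, 17.1% of like probe sets lower). It read 307.5, 141.8 and 150.8 in normal cord, 122.0, 269.3 and 159.5 after laminectomy and 255.6 and 358.6 after contusion. Contused minus uninjured cord was 0.37 ± 0.27 (adjusted p = 0.666) for C1qc, and 0.71 without normal 1 and laminectomy 2. Over the 22 arrays the signals of the chains were only loosely related. Pearson's r between C1qa and C1qb was 0.35 (permutation p = 0.116, 0.406 after Benjamini-Hochberg adjustment over 21 gene pairs; Spearman's rho 0.30, permutation p = 0.179, adjusted 0.459), and 0.36 without the 2 arrays farthest from the median of C1qa. Between C1qb and C1qc r was 0.32 (permutation p = 0.138, adjusted 0.413; rho 0.35, permutation p = 0.110, adjusted 0.459) and between C1qa and C1qc it was 0.23 (permutation p = 0.3003, adjusted 0.547; rho 0.14, permutation p = 0.532, adjusted 0.744). Without the 2 arrays farthest from the median of the first gene, r was 0.36 for C1qb with C1qc and −0.023 for C1qa with C1qc, so the last value rested on those 2 arrays, and within groups it was 0.071.

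C1s, the protease that cuts C4 and C2, had its highest mean after laminectomy and its lowest in untreated contusion. The signals were 329.4, 122.8 and 176.2 in normal cord, 275.0, 348.3 and 292.5 after laminectomy and 57.6 and 113.2 after contusion. Both contusion arrays lay below every uninjured array. The treated arrays read 265.2 and 235.5 with clenbuterol, 128.1, 159.1 and 86.1 with X-ray, 88.8, 230.8 and 202.7 with tempol, 164.8, 377.5 and 96.6 with BSO and 122.8, 263.5 and 227.8 with tempol plus BSO. In the order laminectomy, clenbuterol, tempol plus BSO, normal, BSO, tempol, X-ray and contusion, only laminectomy and clenbuterol had arrays that did not overlap.

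Contusion minus laminectomy was −1.91 ± 0.61 for C1s, a 3.76-fold lower mean (interval −3.19 to −0.63), which did not pass over all probe sets (adjusted p = 0.916). Without normal 1 and laminectomy 2 it was −1.81. Against normal cord the difference was −1.25 ± 0.61 (adjusted p = 0.758), and −0.87 without both arrays. Clenbuterol minus contusion was 1.63 ± 0.67 (interval 0.23 to 3.03, adjusted p = 0.914), with both clenbuterol arrays above both contusion arrays, and tempol plus BSO minus contusion was 1.27 ± 0.61 (adjusted p = 1 after rounding), also without overlap. With X-ray the difference was 0.58 ± 0.61. All contused against uninjured cord gave −0.64 ± 0.32 (adjusted p = 0.507), and −0.40 without normal 1 and laminectomy 2.

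C1r, the partner protease whose gene neighbours C1s on chromosome 4, had contusion arrays inside the range of normal cord. It read 82.9 and 92.7 in contusion, against 208.8, 70.4 and 33.0 in normal cord and 150.4, 147.3 and 90.8 after laminectomy, and contusion minus laminectomy was −0.53 ± 0.73 (adjusted p = 0.974) for C1r, and −0.41 without normal 1 and laminectomy 2. Over the 22 arrays C1r and C1s had the highest correlation of the 21 gene pairs, with r = 0.44 (permutation p = 0.0410, adjusted 0.406) and rho = 0.51 (permutation p = 0.0152, adjusted 0.319). Without the 2 arrays farthest from the median of C1r r was 0.61, and within groups, after each group mean was removed, it was 0.59. Neither the r nor the rho over all 22 arrays passed after adjustment.

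C3, on which all routes of the cascade converge, had its highest group mean in normal cord and its lowest in untreated contusion. Both places rested on 1 array each, normal 1 and contusion 2. In log2 signal normal 2 and normal 3 each read 8.06, below the X-ray mean of 8.17. Contusion 1 read 7.20, above the means of BSO (6.69) and tempol plus BSO (6.89). Normal cord read 699.7, 267.7 and 266.2, laminectomy 183.7, 162.2 and 152.0, and contusion 147.1 and 32.2. Every normal array lay above every laminectomy array, and both contusion arrays lay below all 6 uninjured arrays. The treated arrays read 205.5 and 273.2 with clenbuterol, 223.2, 295.3 and 362.1 with X-ray, 180.2, 181.3 and 104.6 with tempol, 119.9, 190.9 and 47.6 with BSO and 247.5, 58.4 and 116.2 with tempol plus BSO. The group means ran from normal through X-ray, clenbuterol, laminectomy, tempol, tempol plus BSO and BSO to contusion, and only clenbuterol and laminectomy, as neighbours, had arrays that did not overlap.

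Contusion minus normal was −2.42 ± 0.71 for C3, a 5.35-fold lower mean (interval −3.91 to −0.93, adjusted p = 0.401), and −1.96 without normal 1 and laminectomy 2. The contusion value leans on 1 array, since the difference was −1.32 without contusion 2 and −3.51 without contusion 1. Contusion minus laminectomy was −1.27 ± 0.71 (adjusted p = 0.948), and it was −0.17 without contusion 2. Laminectomy minus normal was −1.15 ± 0.64 (adjusted p = 0.926), and −0.68 once normal 1 and laminectomy 2 were dropped. X-ray minus contusion was 2.06 ± 0.71 (4.18-fold, interval 0.58 to 3.55, adjusted p = 0.942) and clenbuterol minus contusion 1.78 ± 0.78 (3.44-fold, interval 0.15 to 3.41, adjusted p = 0.929), both without overlap of the arrays. These comparisons share the 2 contusion arrays. Tempol (1.13 ± 0.71), BSO (0.58 ± 0.71) and tempol plus BSO (0.79 ± 0.71) had arrays that overlapped with contusion. For all contused against uninjured cord the difference was −0.78 ± 0.37 (adjusted p = 0.482), and −0.56 without normal 1 and laminectomy 2.

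Serping1, the inhibitor of the C1 proteases, was read at 212.3, 149.0 and 215.8 in normal cord, 115.0, 222.7 and 473.2 after laminectomy and 54.5 and 60.6 after contusion. Both contusion arrays again lay below all uninjured arrays. Treated cord spread over nearly the whole range, with 105.6 and 531.2 for clenbuterol, 310.3, 190.6 and 488.6 for X-ray, 36.0, 59.2 and 366.3 for tempol, 53.9, 254.3 and 224.2 for BSO and 85.5, 164.9 and 522.2 for tempol plus BSO. Its within-group SD of 1.16 exceeded that of 88.9% of probe sets of like level. In the order X-ray, clenbuterol, laminectomy, tempol plus BSO, normal, BSO, tempol and contusion, the arrays of every pair of neighbours overlapped.

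Contusion minus laminectomy was −2.00 ± 0.97 for Serping1 (interval −4.04 to 0.04, adjusted p = 0.925), and −2.02 without normal 1 and laminectomy 2. X-ray minus contusion was 2.42 ± 0.97 (5.34-fold higher, interval 0.38 to 4.46, adjusted p = 1 after rounding), clenbuterol minus contusion 2.04 ± 1.07 and tempol plus BSO minus contusion 1.76 ± 0.97, and in each of these 3 the arrays did not overlap. The clenbuterol value ran from 0.88 without clenbuterol 2 to 3.21 without clenbuterol 1. Tempol alone, with 2 arrays as low as contusion, differed by 0.68 ± 0.97. All contused against uninjured cord was −0.49 ± 0.51 (adjusted p = 0.788), and −0.46 without the same 2 arrays.

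**Figure D2:**
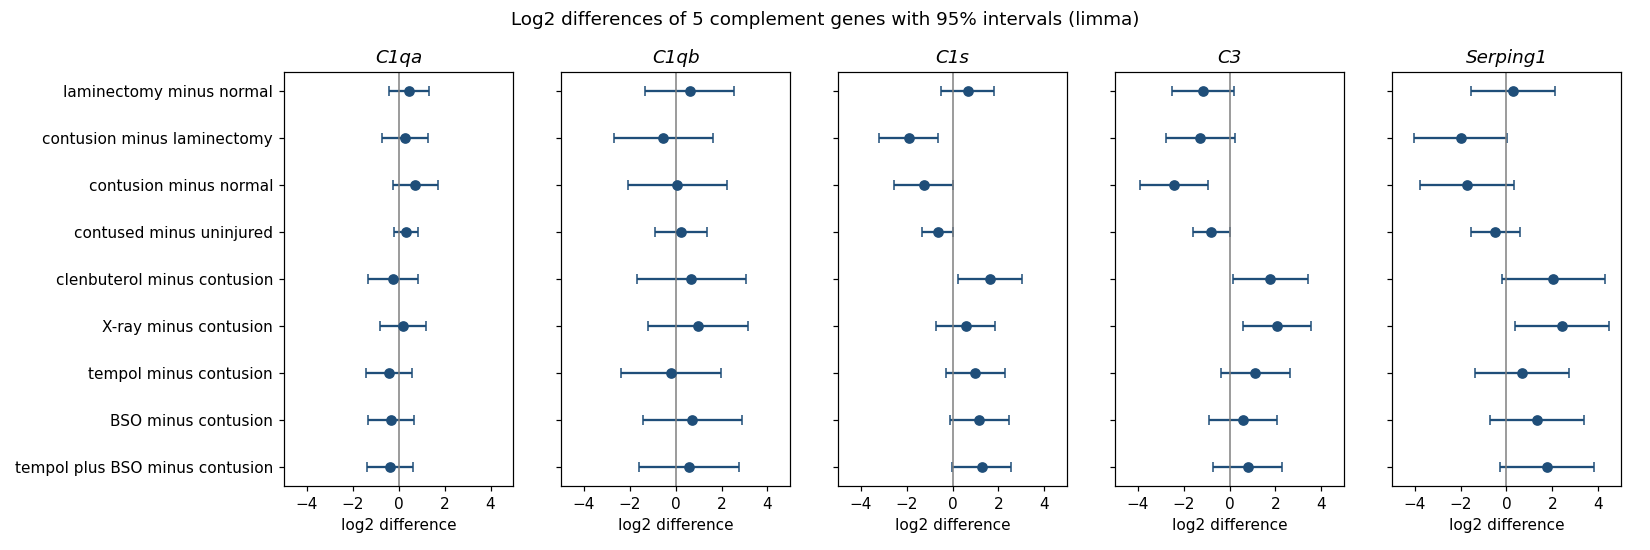
Log2 differences (x axis) of the 5 complement genes in 9 comparisons (y axis), as points with 95% intervals from limma. The intervals of C1qa are the narrowest and include 0 in all 9, and those of C3 lie below 0 for contusion minus normal (−3.91 to −0.93) and above 0 for X-ray minus contusion (0.58 to 3.55), before any adjustment over probe sets.

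Read by comparison, the counts were as follows. After laminectomy 4 genes were higher and 1 lower than in normal cord (median 0.45, against −0.01 over all probe sets), with 0 of 5 passing where 0.00644% of all probe sets did, and 0 of 5 at unadjusted p under 0.05 where 5.59% of all were. The laminectomy arrays of 1 gene, C3, lay below every normal array (4.14% of all probe sets) and those of 0 genes above (4.43%). In contusion minus laminectomy 1 gene was higher and 4 lower (median −1.27, against 0.02 over all), again with 0 of 5 passing (0.00322% of all) and 1, C1s, at unadjusted p under 0.05 (5.38% of all). There the contusion arrays of 4 genes, C1qb, C1s, C3 and Serping1, lay below every laminectomy array, which held for 10.3% of all probe sets, and those of 0 genes lay above (9.52%). In contusion minus normal 3 of 5 lay below without overlap (11.6% of all) and 0 above (10.6%), 0 passed (0.0483% of all) and 1, C3, had an unadjusted p under 0.05 (6.65% of all). The last 2 comparisons share the contusion arrays, so they are not separate evidence.

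Against untreated contusion 4 genes were higher with clenbuterol (median 1.63, against −0.03 over all probe sets), 5 with X-ray (0.96, against −0.03), 3 with tempol (0.68, against −0.02), 4 with BSO (0.73, against 0.00) and 4 with tempol plus BSO (0.79, against 0.02). None passed by limma, and the background was 0.00322% for clenbuterol and 0% for the other treatments. At unadjusted p under 0.05 there were 2 genes with clenbuterol, C1s and C3 (5.36% of all probe sets), 2 with X-ray, C3 and Serping1 (4.81%), and 0 with tempol (2.82%), BSO (3.46%) and tempol plus BSO (3.98%). All treated arrays lay above both contusion arrays for 3 genes with clenbuterol (16.7% of all probe sets), 2 with X-ray (11.5%), 0 with tempol (7.86%), 0 with BSO (8.87%) and 2 with tempol plus BSO (9.54%). All treated arrays lay below for 0 genes with tempol plus BSO (8.42%), BSO (7.92%), tempol (8.35%), clenbuterol (18.8%) and X-ray (12.7%). All 5 comparisons use the same 2 contusion arrays, so a low reading of C1s, C3 or Serping1 on those arrays raises every treated group against them.

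Whether the difference made by tempol depended on BSO was tested by an interaction, and 0 of 5 genes passed (0% of all probe sets), with 0 at unadjusted p under 0.05 (3.44% of all). The estimates ran from −0.92 ± 0.95 for C3 to 0.37 ± 0.63 for C1qa. The test for any difference among the 6 contused groups gave adjusted p of 0.909 for C3 and 0.982 to 1 for the others, with 0 of 5 passing (0% of all) and 0 at unadjusted p under 0.05 (5.60% of all). Over the 5 genes 3 of the 35 neighbouring pairs of group means had arrays that did not overlap, against 2.28% of such pairs over all probe sets.

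The 4 probe sets that carry both Cfb, the convertase protease of the alternative pathway, and C2, that of the classical pathway, did not pass in any comparison either. For tempol minus contusion 1 of them, with a mean log2 signal of 9.15, gave 1.75 ± 0.81 (unadjusted p = 0.0444 by limma, adjusted p = 1). Of lower mean log2 signal, 8.15 and 7.55, 2 others gave −0.45 ± 0.82 and −0.30 ± 0.63. The fourth gave −0.58 ± 0.92, but with a median reading of 18.7, at percentile 3.6 of level among all probe sets, it lay below the filter on low signal and is not counted as disagreeing. In contused minus uninjured cord the 4 gave −0.06, −0.03, 0.26 and, for the one below the filter, 0.46.

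Marker genes of resident and infiltrating cells are given beside these levels. Of 13 measured macrophage markers 12 were higher in contused than in uninjured cord, and 5 rose past the threshold (0.319% of all probe sets passed), namely Gpnmb (1.82 ± 0.29, adjusted p = 0.00585), Arg1 (1.82 ± 0.28, adjusted p = 0.00427), Cd14 (1.40 ± 0.25, adjusted p = 0.0146), Cd36 (2.08 ± 0.42, adjusted p = 0.0376) and Spp1 (1.19 ± 0.24, adjusted p = 0.0365). Without normal 1 and laminectomy 2, Cd14 and Spp1 no longer passed (adjusted p = 0.108 and 0.131). Fcgr2b (2.81, adjusted p = 0.0239) and Lyz2 (1.13, adjusted p = 0.0459) then passed, so that the count was again 5 of 13. The summed signal of the macrophage markers ran from 5211 to 7064 in normal cord, 11955 to 30698 after laminectomy and 23796 to 24689 in contusion. The 11 microglia markers ran from 3520 to 5253, 2946 to 6447 and 4128 to 4492 in the same groups, with 9 higher and 2 lower in contused cord (median 0.19) and 0 past the threshold by limma, 1 at unadjusted p under 0.05 (10.4% of all probe sets). Without normal 1 and laminectomy 2 the microglia count turned to 4 higher and 7 lower (median −0.15). The 10 astrocyte markers summed to 31055 to 46925 in normal cord, 42495 to 74561 after laminectomy and 21782 to 24539 in contusion, with 8 of 10 lower in contused cord and 1, the water channel gene Aqp4, past the threshold (−1.23 ± 0.26, adjusted p = 0.0482), which it missed without normal 1 and laminectomy 2 (adjusted p = 0.184). Aqp4 has 3 probe sets, and only that of the highest mean is given. The astrocyte sum was 33161 to 38962 with clenbuterol and 36563 to 38494 with X-ray, against 15651 to 29356 with the other 3 treatments. The mean log2 signal of C3 was 7.89 with clenbuterol and 8.17 with X-ray, the highest among contused cord, and 7.37 after laminectomy. On single arrays C3 read 247.5 on tempol plus BSO 1, 205.5 on clenbuterol 1 and 223.2 on X-ray 1. Whether C3 and the astrocyte sum are related was not tested.

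Of the 10 oligodendrocyte markers 0 were higher in contused than in uninjured cord (median −0.60), and Ugt8 and Omg, genes of myelin-forming cells, fell past the threshold (−1.39 ± 0.21 and −2.18 ± 0.34, adjusted p = 0.00427 and 0.00585). In contused minus uninjured cord 0.319% of all probe sets passed. Against untreated contusion 10 oligodendrocyte markers were higher with clenbuterol (median 0.71) and 10 with X-ray (median 0.35), with 0 past the threshold by limma and 3 and 1 at unadjusted p under 0.05. Over all probe sets the unadjusted shares were 5.36% and 4.81%, and 0.00322% and 0% passed. All 12 neuron markers were lower in contused cord (median −0.87), and the neurofilament gene Nefl fell past the threshold (adjusted p = 0.0319). Neutrophil markers were higher in 7 of 7 (median 0.91), with S100a8 (2.00 ± 0.39, adjusted p = 0.0318) and S100a9 (2.70 ± 0.40, adjusted p = 0.00328) past it, and red cell markers in 5 of 5 (median 0.53), with the haemoglobin gene Hbb past it (2.99 ± 0.34, adjusted p = 0.000166). Ugt8, Omg, S100a9 and Hbb still passed without normal 1 and laminectomy 2, whereas Nefl (adjusted p = 0.213) and S100a8 (adjusted p = 0.118) did not. Ugt8 and Nefl have 2 probe sets each, and only that of the highest mean is given. Of 9 fibroblast and pericyte markers 3 were higher and 6 lower in contused than in uninjured cord (median −0.38). By limma 0 of them passed the threshold there and 1 had an unadjusted p under 0.05 (10.4% of all probe sets). Without normal 1 and laminectomy 2 there were 2 higher and 7 lower (median −0.15). In contusion minus laminectomy 8 of the 9 were lower (median −0.63). There 0 were past the threshold by limma (0.00322% of all probe sets) and 0 at unadjusted p under 0.05 (5.38% of all). Endothelial markers (3 of 8 higher) and hepatocyte markers (4 of 6 higher) had 0 past the threshold in contused minus uninjured cord by limma, with 1 and 0 at unadjusted p under 0.05 (10.4% of all probe sets). The part of these cells in the levels of the complement genes was not tested, and in whole cord fewer cells of a type and less RNA per cell cannot be told apart.

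Of the other complement genes 44 were measured, 19 components, 16 regulators and 9 receptors, and 0 of them passed in any of the 11 comparisons by limma. In contused minus uninjured cord 9 components were higher and 10 lower (median −0.11, 3 at unadjusted p under 0.05), 7 regulators higher and 9 lower (median −0.16, 2 at unadjusted p under 0.05) and 5 receptors higher and 4 lower (median 0.37, 2 at unadjusted p under 0.05), against a median of 0.00 and 10.4% at unadjusted p under 0.05 over all probe sets. Without normal 1 and laminectomy 2 the medians were 0.0052, −0.20 and 0.043, and 10 of 19, 3 of 16 and 5 of 9 were higher. At the upper end was C5ar1, the receptor of the anaphylatoxin C5a on neutrophils and macrophages. At the lower end was Lrp1, an endocytic receptor that also binds C1q, and Clu, the soluble inhibitor clusterin, differed by −0.64 ± 0.23 (adjusted p = 0.302), and by −0.46 without normal 1 and laminectomy 2. Clu has 2 probe sets, and only that of the highest mean is given.

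**Figure D3:**
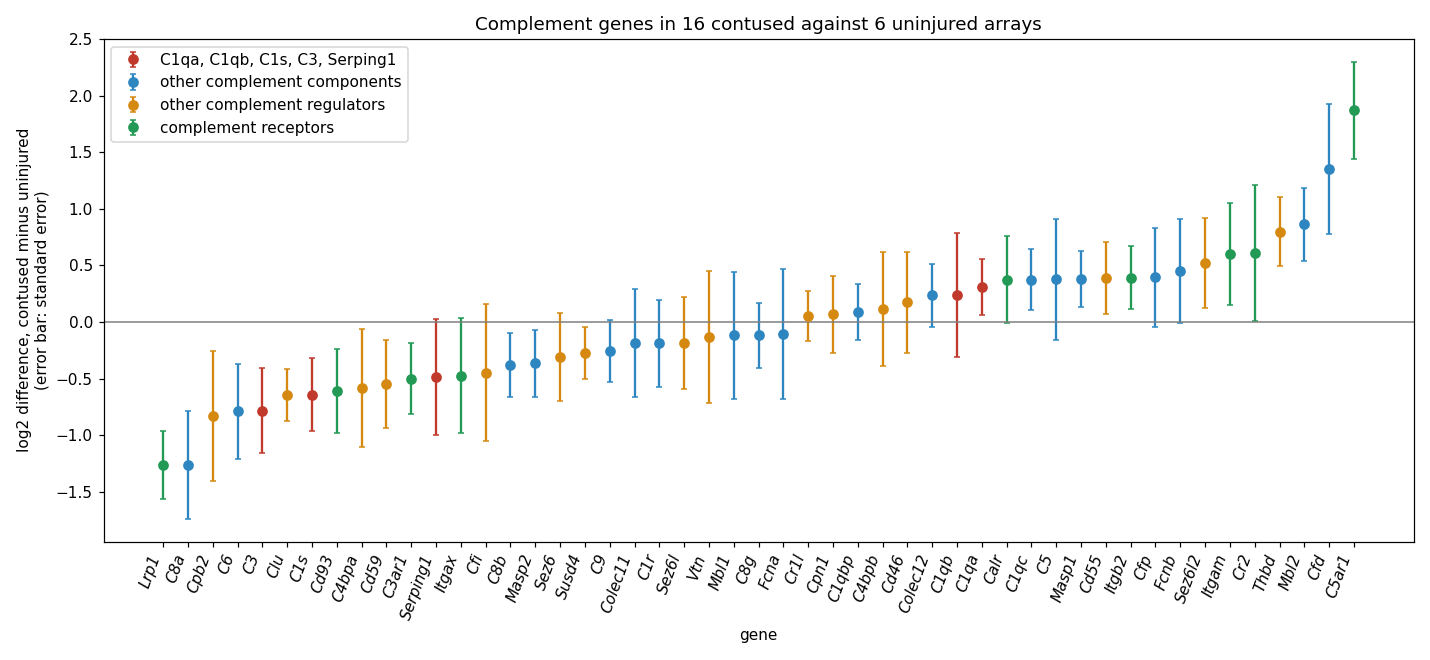
Log2 differences between contused and uninjured cord (y axis, points with standard errors) for 49 complement genes ordered along the x axis and coloured by role. C5ar1 has the highest value, 1.87, Lrp1 with −1.27 and the terminal component gene C8a with −1.26 have the lowest, and C1qa, C1qb, C1s, C3 and Serping1 lie between −0.78 and 0.31.

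C5ar1 came closest to the threshold. Its signals were 10.2, 74.9 and 75.8 in normal cord, 298.0, 512.7 and 232.0 after laminectomy and 622.7 and 745.0 in contusion, so that the 3 groups did not overlap. Contusion minus normal was 4.14 ± 0.81 (17.6-fold, interval 2.44 to 5.84, adjusted p = 0.0993) and laminectomy minus normal 3.09 ± 0.73 (8.49-fold, adjusted p = 0.449). Normal 1 had the lowest of all readings, and without it and laminectomy 2 these were 3.18 and 1.80. In contused minus uninjured cord it was 1.87 ± 0.43 (adjusted p = 0.0769), and over 29 alternatives it passed in 5, with adjusted p from 0.0316 to 0.214. Contusion minus normal passed in 4 of 12 alternatives, with adjusted p from 0.0253 to 0.829. With clenbuterol it read 105.8 and 363.5, and the difference from contusion was −1.80 ± 0.89 (adjusted p = 0.935).

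Lrp1 read 836.1, 745.1 and 608.5 in normal cord, 634.8, 1533.1 and 494.5 after laminectomy and 315.5 and 279.0 in contusion. Contused minus uninjured cord was −1.27 ± 0.30 (2.40-fold lower, adjusted p = 0.0914), and −0.97 without normal 1 and laminectomy 2 (adjusted p = 0.403). Over 29 alternatives it passed in 3, with adjusted p from 0.0356 to 0.403. A second probe set of Lrp1 differed by −0.02 ± 0.34 and so did not show this. It gave 0.55 ± 0.65 in contusion minus laminectomy and 0.80 ± 0.65 in contusion minus normal. For the tempol by BSO interaction it gave −0.30 ± 0.88. In all 3 its sign was opposite to that of the first probe set given below. None of these other receptor genes passed, with Itgam and Itgb2, the chains of complement receptor 3, at 0.60 ± 0.45 and 0.39 ± 0.28 and C3ar1, the receptor of C3a, at −0.50 ± 0.31 in the same comparison (0.68, 0.41 and −0.16 without normal 1 and laminectomy 2).

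**Figure D4:**
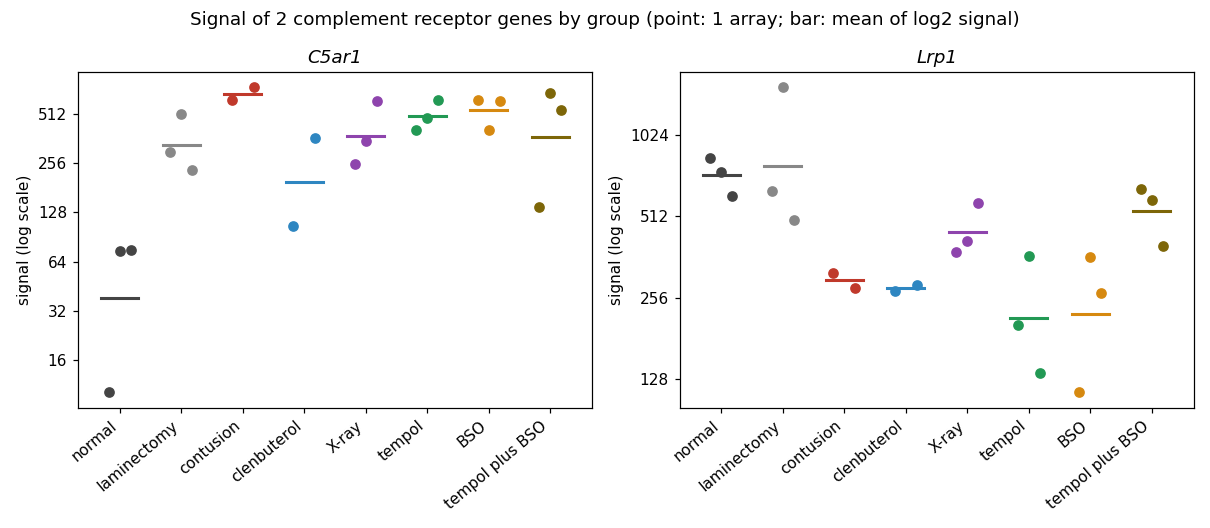
Signal (y axis, log scale) of C5ar1 and Lrp1 in the 8 groups (x axis), with 1 point per array and a bar at the mean of the log2 signals. C5ar1 reads at most 75.8 on the normal arrays and at least 105.8 on all others. Lrp1 reads at least 494.5 on the 6 uninjured arrays, and the contused arrays overlap with these.

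The other complement genes with the smallest p in each comparison are given without any having passed. Masp1, Thbd, Cd55 and Sez6l2 have several probe sets, and only that of the highest mean is given. After laminectomy these were Sez6, which encodes a neuronal protein with complement control domains (2.29 ± 0.66), and its relative Sez6l2 (−1.57 ± 0.68), beside C5ar1, and without normal 1 and laminectomy 2 these were 1.26 and −0.90. In contusion minus laminectomy they were Lrp1 (−1.40 ± 0.57), Sez6 (−1.74 ± 0.74) and the lectin pathway protease gene Masp1 (1.05 ± 0.47), which were −0.92, −1.23 and 1.20 without the same 2 arrays. In contusion minus normal they were Thbd, the thrombomodulin gene (1.42 ± 0.58), and Lrp1 (−1.29 ± 0.57) beside C5ar1, at 1.85 and −1.18 without those 2. With clenbuterol they were C5ar1, C8g (−1.18 ± 0.60) and Cd59, which blocks the membrane attack complex (1.48 ± 0.81), and with X-ray Cd59 (1.43 ± 0.74), C6 (−1.27 ± 0.80) and Susd4 (−0.68 ± 0.44). With tempol they were the decay-accelerating factor gene Cd55 (−1.36 ± 0.60), Vtn (−2.10 ± 1.10) and C5 (1.93 ± 1.01). With BSO they were the carboxypeptidase gene Cpb2 (−3.12 ± 1.09), Vtn (−2.24 ± 1.10) and Itgax, a chain of complement receptor 4 (1.88 ± 0.97). With tempol plus BSO they were the mannose-binding lectin gene Mbl1 (2.37 ± 1.07), Itgax (2.09 ± 0.97) and C5 (2.15 ± 1.01). The Itgax values depended on which contusion array was used: without contusion 2 they were 0.44 for BSO and 0.65 for tempol plus BSO, and without contusion 1 they were 3.32 and 3.53. C5 was read at a mean log2 signal of 2.69 in contusion, a low signal, and with 32 added before the logarithm its differences fell to 0.79 for tempol and 0.69 for tempol plus BSO. Sez6 (4.09 in normal cord, 4.65 in contusion) and Vtn (4.99 with tempol, 4.85 with BSO) were also read at low mean log2 signals. Over the alternatives Sez6 ran from 1.19 to 2.99 in laminectomy minus normal. For the interaction they were Lrp1 (1.72 ± 0.76), Cd55 (1.60 ± 0.81) and C1qc (1.04 ± 0.69), and for any difference among the contused groups Cpb2 (adjusted p = 0.812), Itgax (0.851) and C4bpa (0.907).

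The genes whose log2 signal was most like each complement gene over the 22 arrays are named as a description, since the arrays share their scaling and their tissue makeup. C1qa was nearest to Nufip1 (r = 0.78), Psma2 (0.75) and Vasp (0.75). C1qb was nearest to Ctsz, which encodes the lysosomal cathepsin Z (0.77), Atp5pd (0.75) and Pura (0.74). C1s was nearest to Snapc3 (0.74), Bpnt2 (0.72) and Pcmtd2 (0.69), C3 to Celf2 (0.83), Klf15 (0.75) and Add1 (0.74), and Serping1 to Ppp2r1a (0.78), St6galnac4 (0.75) and Xpc (0.68). Without normal 1 and laminectomy 2 these 15 values lay between 0.63 and 0.79. The genes were picked for the highest r on mostly the same arrays, so neither set of values is evidence of a relation. None of the 15 is a complement gene of the lists used here.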

How the data were processed

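Cord RNA was hybridised to 1 Affymetrix rat array per sample, 22 in all. As deposited, probe sets carry linear signal intensity values with 1 decimal. The submitters' processing notes name RMA, but the deposited values are neither logarithmic nor quantile normalized, and each array has a trimmed mean of 250.0 to 250.1 (2% cut at each end). Scanner and software are not given in the sources used here, and the table holds no detection calls. Values were log2 transformed, 57 control probe sets were left out, and 31042 were tested. A single symbol was listed for 20826 of them, more than 1 for 436 and no symbol for 9780. By Entrez number 20758 matched RefSeq (GRCr8). All 5 complement probe sets lay above the low-signal filter used as an alternative.

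Groups came from the labels. R 4.3.3 with limma 3.58.1 (lmFit, eBayes, 14 residual and 4.713 prior degrees of freedom) fitted 8 group means to all arrays, so groups of 2 and 3 share 1 spread, and the fit was checked on simulated data. The small number of arrays limits the precision. Correlations used 100000 permutations (Python 3.11.15, scipy 1.17.1). The alternatives comprised quantile-normalized values, dropping probe sets with a mean under the 40th percentile, log2 of signal plus 32, eBayes with trend and robust settings, only the compared groups, replicate numbers as a block, leaving out each array, leaving out normal 1 and laminectomy 2, and, for contused minus uninjured, weighting arrays equally. That contrast is the mean of the 6 contused group means minus that of normal and laminectomy. Named genes were the complement genes themselves, other complement genes past the threshold or the 3 with the smallest p per comparison, and the 3 genes most like each by Pearson correlation (mean log2 signal at or above the median). A gene with several probe sets was read by that of the highest mean. The members and lists were chosen with earlier results of these data known. A further promoter motif that had been listed is not reported here.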

Additional observations from a re-analysis of the deposited data

How the results depend on the processing

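No complement gene passed under any alternative. Of 715 recomputed differences 0 passed, the lowest adjusted p was 0.236 (limma), 31 changed sign, 28 of them when 1 array was left out, and 32 of 50 differences kept their sign throughout. Each gene has 1 probe set, so a mean over probe sets gave no further value. The cause of the changes below was not tested.

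Counts over all probe sets moved more. With low signals filtered out, calls went from 2 to 14 (laminectomy minus normal), 15 to 40 (contusion minus normal), 99 to 182 (contused minus uninjured), 1 to 2 (clenbuterol), and 0 to 1 for X-ray, BSO, tempol plus BSO and any difference among contused groups. With 32 added they were 9, 23 and 172 in the first 3, and 0 for contusion minus laminectomy (1 before) and clenbuterol. Trend and robust settings gave 16, 34 and 182. Without normal 1 and laminectomy 2 there were 4 for laminectomy minus normal and 0 for contusion minus laminectomy. Fits of only the compared groups gave 0 for these 2, for contusion minus normal and for clenbuterol. Leaving out 1 array gave 1 to 5 (laminectomy minus normal), 1 to 3 (contusion minus laminectomy), 4 to 16 (contusion minus normal), 59 to 97 (contused minus uninjured), 0 to 3 (clenbuterol) and 0 to 1 for the other treatments and the test among contused groups.

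The interaction reversed for C1qb with quantile normalization (−0.021) and 32 added (−0.053), and for Serping1 with the replicate block (0.24). Replicate numbers did not pair the arrays: deviations of 71 same-numbered pairs had a median correlation of −0.0047, and 7 exceeded 0.1, so the block is an alternative only. With 1 array left out, C1qa gave −0.18 to 0.73 (contusion minus laminectomy), −0.70 to 0.21 (clenbuterol minus contusion), −0.28 to 0.64 (X-ray minus contusion), −0.87 to 0.045 (tempol minus contusion), −0.78 to 0.14 (BSO minus contusion), −0.83 to 0.091 (tempol plus BSO minus contusion), −0.091 to 0.83 (tempol by BSO interaction). With 1 array left out, C1qb gave −0.50 to 0.92 (contusion minus normal), −0.051 to 0.66 (contused minus uninjured), −0.43 to 1.81 (clenbuterol minus contusion), −0.93 to 0.18 (tempol minus contusion), −0.85 to 0.79 (tempol by BSO interaction). With 1 array left out, C3 gave −0.52 to 1.68 (BSO minus contusion), −0.31 to 1.88 (tempol plus BSO minus contusion), −2.02 to 0.17 (tempol by BSO interaction). With 1 array left out, Serping1 gave −0.25 to 0.78 (laminectomy minus normal), −0.32 to 1.36 (tempol minus contusion), −0.98 to 0.74 (tempol by BSO interaction). With 1 array left out, C6 gave −2.61 to 0.079 (X-ray minus contusion).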
